A study of Homo sapiens with 19 samples.

Results

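The collagen genes were taken from the RNA-seq count table as every symbol made of COL, a number, A and a number, which gave 44 genes of 23441. Of these, 22 passed the filter on low counts, as did 14225 genes in all. All groups were the VHL-defective clear cell renal carcinoma line 786-O, an established line in which HIF-2α accumulates without hypoxia and which makes only truncated HIF-1α transcripts of its own. Cells were transduced with the empty lentiviral vector pRRL (control cells), with pRRL-HIF-1a (HIF-1α re-expressing cells) or with pRRL-HIF-2a (HIF-2α overexpressing cells), all of which also carry EGFP. RNA was sequenced in 3 libraries per group. Binding was measured by ChIP-seq of HIF-2α and of HIF-1β, the partner of both α subunits, in all 3 groups, and of HIF-1α where it was re-expressed, which gave 7 lists of peaks with 1 library each. The cells were infected pools and not clones, expression came from a virus, and no source states that the RNA libraries of a group came from separate infections, so that the p-values may measure technical spread only. In bulk libraries fewer cells that express a gene and less RNA per cell cannot be told apart.

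Collagens are secreted or membrane-bound proteins in which 3 chains wind into a triple helix. Fibrillar collagens form the banded fibres of connective tissue, network collagens such as type IV build the basement membrane on which epithelia rest, type VI forms beaded filaments around cells, and type VII forms the anchoring fibrils that tie the basement membrane to the stroma below it. Assembly needs prolyl and lysyl hydroxylases, enzymes that use oxygen, and several enzymes of collagen processing are known hypoxia-inducible genes.

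The RNA-seq libraries held between 27852754 and 54287621 counts, and libraries of a group differed far beyond counting error (chi-square per degree of freedom 155 to 399). HIF1A, counted over the whole gene and so including the truncated transcripts, stood at 171, 1682 and 473 CPM (counts scaled to library size by the TMM method) in the HIF-1α re-expressing libraries, at 15.3 to 30.4 CPM in the HIF-2α overexpressing cells, and at 30.4, 36.7 and 152 CPM in the controls. Control replicate 3 thus lay close to HIF-1α replicate 1. It also held 14.3 CPM of CA9, a HIF-1α target, against 8.46 CPM in HIF-1α replicate 1 and at most 0.171 CPM in the other control libraries. Collagen calls that are lost without this library are therefore given with their values without it. For the other gene lists only the number of calls without it is given. EPAS1, which encodes HIF-2α, stood at 946, 3244 and 880 CPM in the HIF-2α overexpressing libraries against 456, 224 and 162 CPM in the controls. In the HIF-1α re-expressing libraries it stood at 575, 627 and 397 CPM, above the control of the same replicate number each time. The part of EPAS1 in the collagen values was not tested. None of the 8 renal carcinoma markers examined was at 0 throughout, and they summed to 4605 to 7100.0 CPM per library, most of it VIM (3963 to 5671 CPM), which fibroblasts also express. Of the others, NDUFA4L2 was low in every library (0.171 to 2.12 CPM), and CA9 stood at 0.105 to 0.694 CPM with HIF-2α. PAX8 stood at 175 to 364, PAX2 at 8.53 to 26.7 and NNMT at 71.4 to 410 CPM. The keratins of this list were lower in every HIF-1α library than in any control, KRT8 at 305, 379.8 and 309 against 488, 603 and 569.7 CPM and KRT18 at 142, 97.0 and 84.9 against 212, 172 and 191 CPM. The HIF-2α libraries also lay below every control, KRT8 at 477.5, 289 and 348 CPM and KRT18 at 171.3, 86.1 and 113 CPM. The part of the keratins in the collagen values was not tested. The 4 endothelial markers summed to at most 1.27 CPM and the 3 leukocyte markers to at most 0.726 CPM. The 6 fibroblast markers summed to 11.7 to 40.8 CPM, mostly ACTA2 and LUM, with the defining genes PDGFRA, DCN and THY1 below 1 CPM in every library. PDGFRB stood at 0.368, 0.354 and 1.51 CPM with HIF-1α and 0.103, 0.313 and 0.391 CPM in controls, and was highest in HIF-1α replicate 3, as were LUM, COL5A1 and COL23A1. Its part in these values was not tested.

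Expression was concentrated in few collagens. Per kilobase of exon, COL18A1, the precursor of endostatin, was highest with a mean of 46.7 CPM per kb over the 9 libraries (range 26.4 to 85.1). It was followed by COL7A1 at 43.6 (19.9 to 81.7), COL6A2 at 41.7 (12.9 to 115), COL6A3 at 38.0 (5.47 to 87.2) and COL6A1 at 23.8 (5.99 to 59.2) CPM per kb. The type IV chains COL4A2 and COL4A1 came next with 17.9 and 17.2 CPM per kb. COL8A1, a short-chain network collagen, reached 6.52 and COL27A1, a fibrillar collagen, 2.91 CPM per kb. The ranges of neighbours in this order overlapped. With the length of the canonical transcript in place of all annotated exons, COL6A3 ranked 1 and COL7A1 ranked 5. COL1A2 and COL3A1, chains of the major fibrils of fibroblasts, had at most 5 counts in any library, and COL1A1 at most 375. The 22 collagen genes that failed the filter had at most 76 counts in any library, and 76 was the count of COL23A1, a transmembrane collagen, in HIF-1α replicate 3 alone. They included 6 of the 11 fibrillar genes, 6 of the 10 fibril-associated genes, 3 of the 6 type IV genes and 2 of the 5 beaded filament genes.

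**Figure D1:**
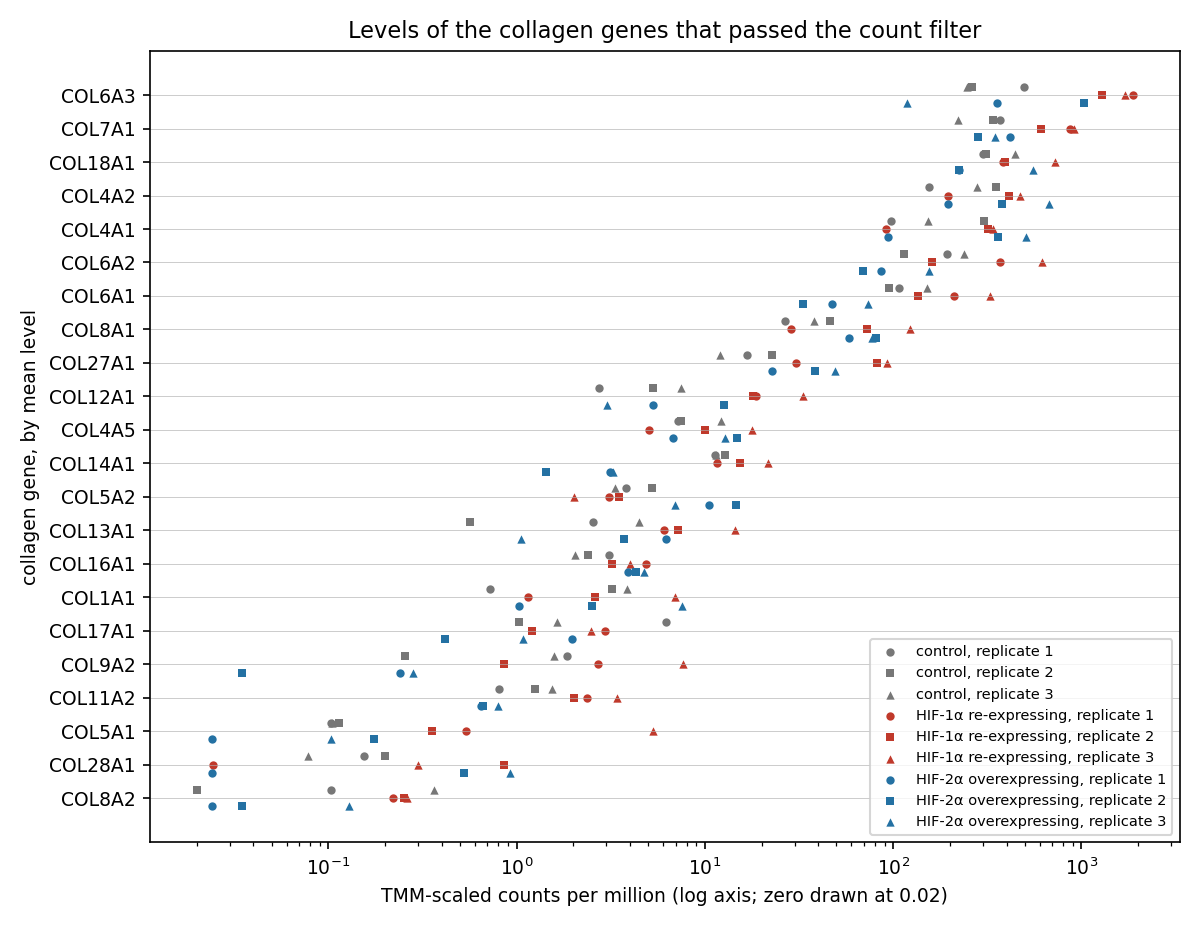
TMM-scaled CPM (log axis) of the 22 collagen genes that passed the filter, 1 point per library, coloured by cells and shaped by replicate number. COL6A3 spans 118 to 1877 CPM, and its 3 HIF-1α libraries lie above all control libraries.

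Summed over all 44 genes, collagen transcripts made up 4114, 3536 and 5425 CPM in the HIF-1α re-expressing libraries, 1544, 2549 and 2596 CPM in the HIF-2α overexpressing libraries and 1805, 1888 and 1836 CPM in the controls. The HIF-1α libraries lay above all other libraries in this sum, and the HIF-2α libraries lay on both sides of the controls. The 5 beaded filament genes summed to 2456, 1579 and 2644 CPM with HIF-1α, 489.6, 1129.9 and 347 CPM with HIF-2α and 797, 472 and 636 CPM in controls.

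The study asked what each HIF-α isoform does to gene expression in these cells, and each was compared with the control cells and with the other. The 3 control libraries serve both comparisons with control. edgeR's quasi-likelihood test on the cell groups alone called no collagen gene at a Benjamini-Hochberg adjusted p under 0.05 in any comparison. Of all tested genes it called 0.0% in either direction in both comparisons with control, and 0.0281% higher and 0.0211% lower between the isoforms. At an unadjusted p under 0.05 it had 9 collagen genes higher and 0 lower with HIF-1α than in controls, against 11.1% and 8.23% of all tested genes. It had 3 higher and 3 lower with HIF-2α than in controls (3.35% and 2.54%), and 9 higher and 1 lower with HIF-1α than with HIF-2α (9.04% and 4.6%). DESeq2, another count test, called 5, 1 and 9 collagen genes, and 5.25%, 0.412% and 4.43% of the genes to which it gave an adjusted p. Libraries with the same replicate number deviated together in every group, so the same test was run with the replicate number as a block. In that paired fit 8 of the 22 collagen genes rose and none fell with HIF-1α re-expression, against 5.41% of all tested genes called higher and 2.55% called lower. With HIF-2α overexpression 2 fell and none rose, where 0.155% of all tested genes were called lower and 0.112% higher. Between the groups 7 were higher and 1 lower with HIF-1α than with HIF-2α, against 4.54% and 1.38% of all tested genes. COL5A1 is among the genes counted higher with HIF-1α in both comparisons, although it passed the filter only through the HIF-1α libraries. Rose and fell refer throughout to the paired fit, as do the errors (SE) and adjusted p-values of single genes, and the fit without the block gave none of these calls.

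The median log2 fold change over the 22 genes was 0.97 for HIF-1α against control (0.04 over all tested genes), 0.40 for HIF-2α against control (-0.02) and 1.06 for HIF-1α against HIF-2α (0.02) in the fit without a block. With the block these medians were 0.90, 0.33 and 1.15. Within replicate numbers 1, 2 and 3, on log2(CPM + 0.1), the median was 0.62, 0.58 and 1.13 for HIF-1α against control and 0.66, 0.77 and 1.02 between the isoforms. For HIF-2α against control it was -0.17, 0.30 and 0.03, on both sides of 0, and its paired median was -0.014 without HIF-2α replicate 2. Of the 22 genes, 20 had a positive log2 fold change with HIF-1α (52.4% of all tested genes), 13 with HIF-2α (47.5%) and 15 between the groups (51.9%) in the fit without a block. Without any model, the 3 HIF-1α libraries lay above all 3 controls for 8 collagen genes (12.9% of all tested genes) and below them for 0 (11.2%). The HIF-2α libraries lay above the controls for 3 (6.0%) and below for 3 (5.19%). HIF-1α libraries lay above all HIF-2α libraries for 10 (10.4%) and below them for 1 (8.82%). These counts for HIF-1α include COL5A1, which passed the filter only through the HIF-1α libraries. The paired count for HIF-1α against control depended on single libraries. It was 0 without control replicate 3, and also without HIF-1α replicate 2, HIF-1α replicate 3, HIF-2α replicate 1 or control replicate 2, and it was 1 without HIF-1α replicate 1. All 8 genes kept their direction with each library left out. Without control replicate 3, edgeR gave 0.74 for COL6A1 (adjusted p = 0.145), 0.79 for COL6A2 (0.168), 2.50 for COL6A3 (0.163), 1.08 for COL7A1 (0.123), 2.44 for COL5A1 (0.219), 1.39 for COL27A1 (0.106), 2.70 for COL12A1 (0.124) and 1.16 for COL9A2 (0.220) with HIF-1α against control. For HIF-2α against control the count was 0 without control replicate 3, where COL14A1 stood at -2.44 (edgeR adjusted p = 0.0947) and COL6A1 at -1.37 (0.0795), and 0 to 4 over all libraries left out. Between the isoforms it was 5 to 10, and 8 without control replicate 3.

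**Figure D2:**
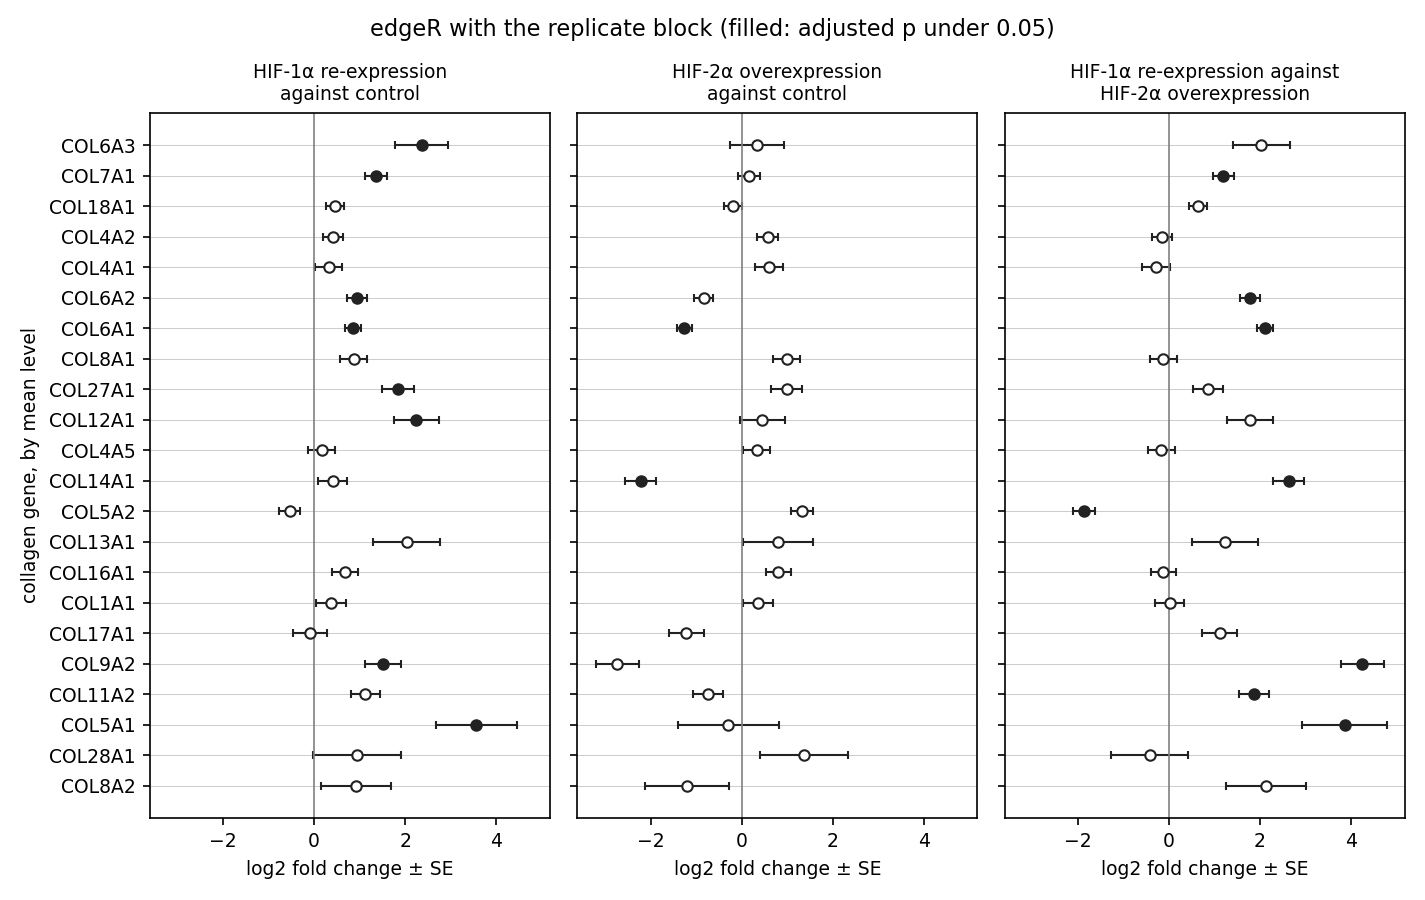
Log2 fold change ± SE of the 22 collagen genes in the 3 comparisons, edgeR with the replicate block. Filled points have an adjusted p under 0.05: 8 in the left panel, 2 in the middle and 8 on the right.

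Type VI collagen, the beaded filament of the pericellular matrix, held the gene with the smallest adjusted p between the isoforms among the 22, COL6A1. The α1 and α2 chains of type VI are both encoded on chromosome 21, COL6A1 at chr21:47401684-47424964 and COL6A2 at chr21:47518026-47552762, both on the plus strand. COL6A1 stood at 211, 136 and 328 CPM with HIF-1α, 47.3, 33.1 and 73.9 CPM with HIF-2α and 108, 95.2 and 152 CPM in controls, in the order of replicates 1 to 3, which holds for all values by library. The HIF-2α libraries lay below every other library, whereas the HIF-1α and control libraries overlapped and differed in the same direction within each replicate number. COL6A1 rose with HIF-1α (log2 fold change 0.86 ± 0.17 SE, adjusted p = 0.0358) and fell with HIF-2α (-1.26 ± 0.17, adjusted p = 0.0372). Between the isoforms the difference was 2.12 ± 0.18 (adjusted p = 0.00115), or 4.46, 4.11 and 4.44 times within the 3 replicate numbers. COL6A2 stood at 369, 161 and 616 CPM with HIF-1α, 85.9, 68.8 and 155 CPM with HIF-2α and 192, 114 and 239 CPM in controls. It rose with HIF-1α (0.95 ± 0.22, adjusted p = 0.0418) and differed between the isoforms by 1.78 ± 0.22 (adjusted p = 0.00406), while the value for HIF-2α against control, -0.84 ± 0.22, missed the threshold (adjusted p = 0.164). The differences of COL6A1 and COL6A2 between the isoforms stayed past the threshold with each of the 9 libraries left out, whereas the fall of COL6A1 with HIF-2α passed in 3 of these 9 fits. The ratio of COL6A1 to COL6A2 in counts per kb stayed between 0.460 and 0.815 over the 9 libraries.

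The α3 chain is a much longer protein encoded on chromosome 2 (COL6A3, chr2:238232646-238322971, minus strand). COL6A3 stood at 1877, 1282 and 1700.4 CPM with HIF-1α and 497, 263 and 245 CPM in controls, so that the groups did not overlap. It rose with HIF-1α by 2.36 ± 0.59 (adjusted p = 0.0454). In the HIF-2α overexpressing cells it stood at 356, 1028 and 118 CPM, with replicate 2 above and the others within or below the controls, and neither this comparison (0.34 ± 0.60, adjusted p = 0.821) nor that between the isoforms (2.03 ± 0.62, adjusted p = 0.0924) passed. The ratio of COL6A3 to COL6A1 in counts per kb ran from 0.410 in HIF-2α replicate 3 to 7.98 in HIF-2α replicate 2, so the lowest and the highest ratio came from the same group. The remaining beaded filament genes, COL6A5 and COL6A6, had at most 4 counts in a library.

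**Figure D3:**
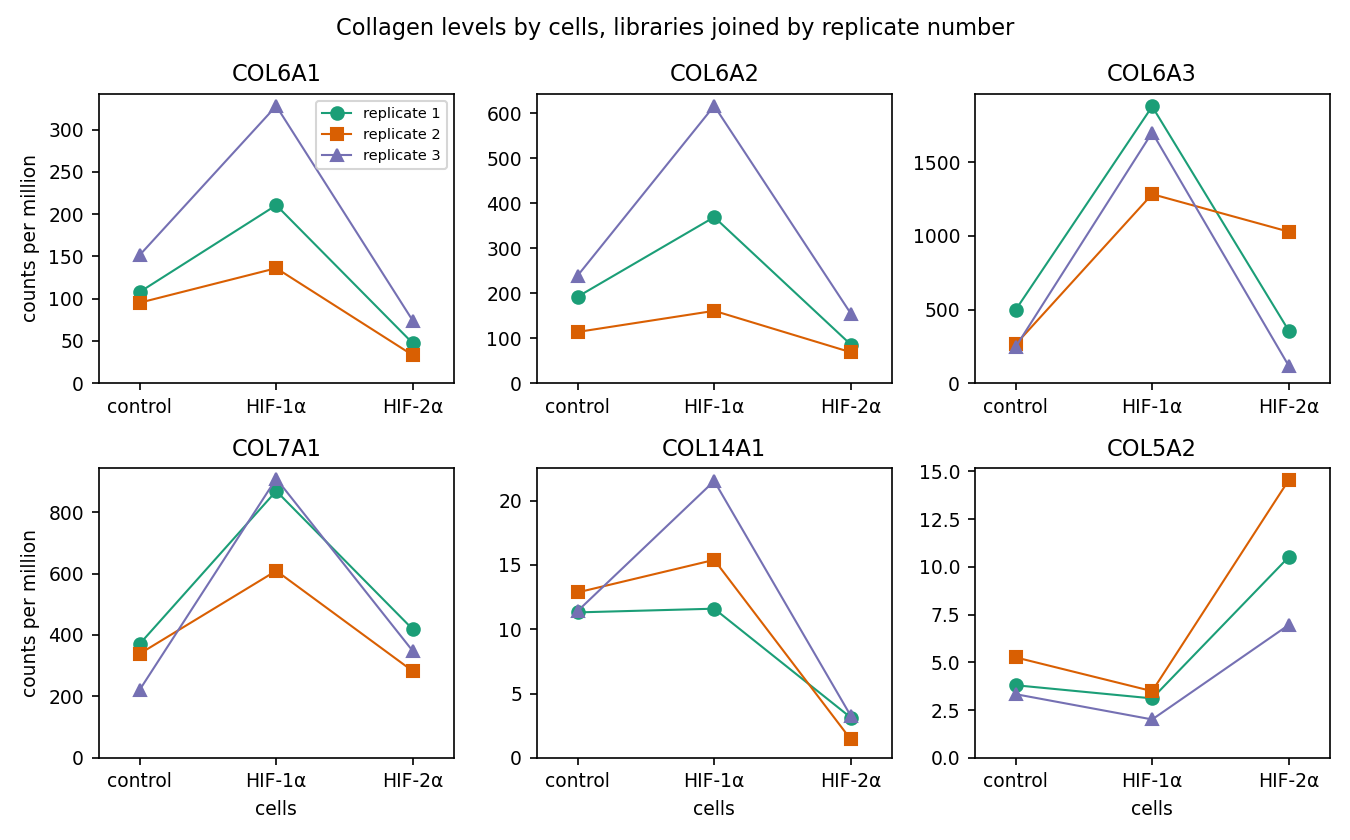
CPM of 6 collagen genes in control, HIF-1α re-expressing and HIF-2α overexpressing cells, with libraries of the same replicate number joined by a line. COL6A1 and COL6A2 peak with HIF-1α and are lowest with HIF-2α in all 3 replicates, COL5A2 runs the other way, and COL6A3 with HIF-2α ranges from 118 to 1028 CPM.

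COL7A1 (chr3:48601506-48632762, minus strand) encodes the only chain of the anchoring fibril. It stood at 869, 609 and 909 CPM with HIF-1α, 418, 282 and 348 CPM with HIF-2α and 371, 339 and 221 CPM in controls. All HIF-1α libraries lay above all others, and the HIF-2α and control libraries overlapped. The rise with HIF-1α was 1.36 ± 0.24 (adjusted p = 0.0319) and the difference between the isoforms 1.20 ± 0.23 (adjusted p = 0.0212). HIF-2α against control gave 0.16 ± 0.23 (adjusted p = 0.771). COL7A1 was lowest in control replicate 3, without which the rise was not called. The difference between the isoforms missed the threshold without HIF-1α replicate 3 or any 1 of the HIF-2α libraries.

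Among the 5 fibrillar genes tested, the 2 chains of type V collagen, which regulates the width of larger fibrils, differed between the isoforms in opposite directions. COL5A2 (chr2:189896624-190090038) stood at 3.11, 3.49 and 2.01 CPM with HIF-1α, 10.5, 14.5 and 6.96 CPM with HIF-2α and 3.80, 5.26 and 3.33 CPM in controls. The HIF-2α libraries lay above all others, and COL5A2 was the 1 collagen gene called lower with HIF-1α than with HIF-2α (-1.87 ± 0.24, adjusted p = 0.00458). Against control the values were 1.33 ± 0.24 for HIF-2α (adjusted p = 0.0589) and -0.54 ± 0.24 for HIF-1α (adjusted p = 0.147). COL5A1 (chr9:137533649-137736689) was near the limit of detection outside 1 library: it had 22, 14 and 284 counts with HIF-1α, 1, 5 and 4 counts with HIF-2α and 4 counts in each control. Only its HIF-1α libraries reached the minimum of 10 counts on which the filter rests. COL5A1 thus entered the test only through the group where it was high, and its calls cannot serve as support. It rose with HIF-1α (3.57 ± 0.90, adjusted p = 0.0459) and was higher than with HIF-2α (3.86 ± 0.92, adjusted p = 0.0436). Without HIF-1α replicate 3 neither call was left, the value against control being 2.07, and each call was also lost without several other libraries.

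COL27A1 (chr9:116917817-117074791), a fibrillar collagen of cartilage, stood at 30.6, 82.3 and 92.5 CPM with HIF-1α, 22.6, 38.4 and 48.8 CPM with HIF-2α and 16.8, 22.8 and 12.01 CPM in controls. The HIF-1α libraries lay above the controls, and the highest control (22.8) lay just above the lowest HIF-2α library (22.6). It rose with HIF-1α (1.84 ± 0.35, adjusted p = 0.0342), and neither the value with HIF-2α (0.99 ± 0.34, adjusted p = 0.254) nor that between the isoforms (0.85 ± 0.33, adjusted p = 0.164) passed. COL11A2, a chain of the cartilage fibril, stood at 2.35, 2.02 and 3.43 CPM with HIF-1α, 0.650, 0.663 and 0.796 CPM with HIF-2α and 0.802, 1.25 and 1.54 CPM in controls, 3 groups without overlap. It was higher with HIF-1α than with HIF-2α (1.86 ± 0.33, adjusted p = 0.0151) and missed the threshold against control on either side (1.13 ± 0.32, adjusted p = 0.0574 for HIF-1α and -0.74 ± 0.33, adjusted p = 0.350 for HIF-2α). The call was lost without HIF-1α replicate 1, HIF-2α replicate 1 or HIF-2α replicate 3, with edgeR adjusted p-values up to 0.0904. COL1A1, the main chain of type I collagen, followed the replicate numbers: 1.15, 2.61 and 6.98 CPM with HIF-1α, 1.04, 2.51 and 7.58 CPM with HIF-2α and 0.724, 3.21 and 3.88 CPM in controls, with overlap in every comparison. LUM, a proteoglycan of fibroblasts, also followed them, with 1.00, 3.97 and 10.4 CPM with HIF-1α, and its part in these values was not tested.

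Fibril-associated collagens sit on the surface of fibrils and do not form fibrils themselves. COL12A1 (chr6:75794042-75915983) stood at 18.6, 17.9 and 33.3 CPM with HIF-1α and 2.74, 5.29 and 7.48 CPM in controls, without overlap, and at 5.27, 12.7 and 3.03 CPM with HIF-2α. It rose with HIF-1α by 2.24 ± 0.50 (adjusted p = 0.0399). HIF-2α against control gave 0.46 ± 0.50 (adjusted p = 0.689) and the isoforms differed by 1.78 ± 0.50 (adjusted p = 0.0719). COL14A1 on chromosome 8 had its lowest values with the other isoform. It stood at 3.13, 1.43 and 3.26 CPM with HIF-2α, below 11.6, 15.4 and 21.5 CPM with HIF-1α and 11.3, 12.9 and 11.4 CPM in controls. COL14A1 fell with HIF-2α (-2.22 ± 0.33, adjusted p = 0.0372) and was 2.63 ± 0.34 higher with HIF-1α than with HIF-2α (adjusted p = 0.00457), and this difference held with every library left out. The fall held in 1 of 9 such fits. Its value for HIF-1α against control was 0.41 ± 0.31 (adjusted p = 0.381).

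COL9A2 (chr1:40766161-40783485), a chain of the cartilage collagen type IX, stood at 2.70, 0.861 and 7.65 CPM with HIF-1α, 0.241, 0.0349 and 0.283 CPM with HIF-2α and 1.86, 0.256 and 1.59 CPM in controls. The lowest HIF-2α library held 1 count. The HIF-1α libraries lay above all HIF-2α libraries, and the controls overlapped both groups. COL9A2 rose with HIF-1α (1.52 ± 0.40, adjusted p = 0.0493) and differed between the isoforms by 4.25 ± 0.48 (adjusted p = 0.00329). HIF-2α against control gave -2.73 ± 0.48 (adjusted p = 0.0563), lower in all 3 replicate numbers. COL16A1 stood at 4.85, 3.21 and 4.02 CPM with HIF-1α, 3.90, 4.33 and 4.75 CPM with HIF-2α and 2.03 to 3.08 CPM in controls, above the controls in both groups without passing the test (adjusted p = 0.129 and 0.264).

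None of the basement membrane collagens passed the test. COL4A1 (chr13:110801310-110959504, minus strand) and COL4A2 (chr13:110958159-111165556, plus strand) encode the chains of the common type IV network and start head to head. COL4A2 stood at 195, 411 and 473 CPM with HIF-1α, 196, 377 and 671 CPM with HIF-2α and 155, 352 and 279 CPM in controls. COL4A1 stood at 91.9, 321 and 341 CPM, 93.6, 361 and 505 CPM, and 96.9, 305 and 154 CPM in the same groups. Replicate 1 was the lowest of its group for both genes in all 3 groups, and no groups were separate. With HIF-1α the paired fit gave 0.32 ± 0.30 for COL4A1 (adjusted p = 0.484) and 0.42 ± 0.23 for COL4A2 (adjusted p = 0.226), and with HIF-2α 0.60 ± 0.31 (adjusted p = 0.388) and 0.57 ± 0.23 (adjusted p = 0.313). The value of COL4A1 with HIF-1α was -0.08 without control replicate 3. COL4A5, a chain of the specialised network of the glomerulus, stood between 5.07 and 17.8 CPM with overlap in every comparison, and COL4A3, COL4A4 and COL4A6 had at most 13 counts in a library.

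COL18A1 (chr21:46825080-46933634), a multiplexin of the basement membrane, stood at 382, 395 and 720.5 CPM with HIF-1α, 225, 223 and 555 CPM with HIF-2α and 301, 310.5 and 445 CPM in controls. Its exons overlap those of SLC19A1 on the opposite strand, and the strand setting of the counting is not given in the sources used here, so that reads of the overlap cannot be assigned. It missed the threshold with HIF-1α (0.45 ± 0.20, adjusted p = 0.143), with HIF-2α (-0.19 ± 0.20, adjusted p = 0.668) and between the isoforms (0.64 ± 0.20, adjusted p = 0.0913). COL8A1 stood at 28.7, 72.5 and 123 CPM with HIF-1α, 58.3, 80.9 and 77.6 CPM with HIF-2α and 26.7, 46.4 and 37.9 CPM in controls. It was above control in each of the 3 replicate numbers in both groups without passing (0.87 ± 0.30, adjusted p = 0.0916 with HIF-1α and 0.99 ± 0.30, adjusted p = 0.220 with HIF-2α). Its relative COL8A2 had 0 to 14 counts.

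Of the transmembrane collagens, COL13A1, found at cell adhesions, stood at 6.10, 7.24 and 14.5 CPM with HIF-1α, 6.21, 3.73 and 1.05 CPM with HIF-2α and 2.54, 0.569 and 4.46 CPM in controls. The HIF-1α libraries lay above the controls without passing the test (2.03 ± 0.73, adjusted p = 0.0957). COL17A1, a hemidesmosome component, stood at 2.97, 1.21 and 2.48 CPM with HIF-1α, 1.97, 0.419 and 1.08 CPM with HIF-2α and 6.18, 1.02 and 1.64 CPM in controls, with overlap. COL28A1 had 1 to 36 counts and overlapping groups.

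Genes that fold, modify and process collagen were read from a list of 28, of which 27 were tested. In the paired fit 3 rose with HIF-1α and 0 fell, with a median log2 fold change of 0.34. Over all tested genes 5.41% were called higher and 2.55% lower in this comparison, with a median of 0.04. LOX, which cross-links collagen, stood at 91.5, 485 and 209 CPM with HIF-1α against 42.5, 7.40 and 11.9 CPM in controls (3.70 ± 0.80, adjusted p = 0.0388). PCOLCE2, an enhancer of procollagen cleavage, rose by 1.53 ± 0.38 (adjusted p = 0.0456) and P4HA1, a prolyl hydroxylase subunit, by 1.01 ± 0.24 (adjusted p = 0.0426). With HIF-2α none passed, P4HA1 at 0.99 (adjusted p = 0.143) and LOX at 2.35 (adjusted p = 0.227). Between the isoforms 2 were higher with HIF-1α, the procollagen peptidase ADAMTS14 (3.97 ± 0.96, adjusted p = 0.0446) and the collagen chaperone SERPINH1 (0.97 ± 0.17, adjusted p = 0.0134). Of all tested genes 4.54% were called higher between the isoforms, and the counts of this list were not tested against these shares.

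Of the 10 collagen receptors tested, ITGA11 and OSCAR rose with HIF-1α (3.08 ± 0.42, adjusted p = 0.0264 and 1.86 ± 0.48, adjusted p = 0.0474), were higher than with HIF-2α (3.62 ± 0.44, adjusted p = 0.00369 and 3.79 ± 0.56, adjusted p = 0.00759), and none passed with HIF-2α. Both were low, with ITGA11 at 458, 9 and 47 counts and OSCAR at 208, 34 and 47 counts with HIF-1α. ITGA11 had 44, 1 and 5 counts in controls and 38, 0 and 3 with HIF-2α. OSCAR had 86, 6 and 7 counts in controls and 26, 0 and 2 with HIF-2α. Replicate 1 was the highest of its group for both genes in every group. Of 9 basement membrane and fibril partners tested, 3 rose with HIF-1α. FN1, fibronectin, stood at 12329, 24413 and 17805 CPM with HIF-1α, 1505, 2098 and 4611 CPM with HIF-2α and 4196, 5985 and 2604 CPM in controls (2.03 ± 0.43, adjusted p = 0.0371), with overlap only between the HIF-2α and control libraries. NID2, a nidogen that links laminin to type IV collagen, rose by 1.98 ± 0.24 (adjusted p = 0.0264) and the heparan sulphate proteoglycan HSPG2 by 1.62 ± 0.28 (adjusted p = 0.0315). HSPG2 also lay above every control in the HIF-2α libraries, at 327, 390 and 334 against 210, 203 and 102 CPM, and was not called between the isoforms. Between the isoforms BGN (3.28 ± 0.79, adjusted p = 0.0444, on 4, 1 and 272 counts with HIF-1α), NID2 (2.83 ± 0.25, adjusted p = 0.00115) and FN1 (2.75 ± 0.45, adjusted p = 0.0111) were higher with HIF-1α, and NID1 was lower (-1.75 ± 0.31, adjusted p = 0.0148). With HIF-2α against control none of the 9 passed. Over all tested genes, 5.41% were called higher with HIF-1α than in controls. Between the isoforms 4.54% were called higher and 1.38% lower with HIF-1α. The counts of receptors and partners were not tested against these shares. Without control replicate 3, none of the 3 lists had a gene past the threshold with HIF-1α against control, and between the isoforms 1 folding gene, 2 receptors and 3 partners were past it.

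Binding near the collagen genes was read from the peak lists, whose windows are all 2500 bp wide and carry no score, so that depth and signal are unknown and no test was made. Re-expressed HIF-1α had a peak midpoint within 10 kb of a start site of 10 of the 44 genes (22.7%), against 23.9% of all genes placed on the annotation. HIF-2α in the HIF-2α overexpressing cells had one at 11 (25.0%), against 10.4% of all genes. HIF-1β gave 7 genes where HIF-1α was re-expressed (28.0% of all genes), 5 in the HIF-2α overexpressing cells (11.3%) and 7 in control cells (18.3%). HIF-2α gave 2 genes in the HIF-1α re-expressing cells (3.04%) and 2 in control cells (3.75%). At least 1 list had a peak at 16 of the 44 genes (36.4%, against 38.9% of all genes). All but COL21A1 of these 16 were among the 22 tested genes, where 15 (68.2%) had a peak, against 55.0% of all tested genes. By list, these 22 genes held 10 for HIF-1α (34.6% of all tested genes), 7, 5 and 7 for HIF-1β in HIF-1α re-expressing, HIF-2α overexpressing and control cells (40.8%, 16.2% and 25.7%), and 2, 10 and 2 for HIF-2α in the same order of cells (4.21%, 14.5% and 5.33%). Over the 44 genes, the number for each of the other 6 lists was below that given by the share of all placed genes, or within 1 gene of it. COL4A1 and COL4A2 share peaks and are counted as 2 genes.

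**Figure D4:**
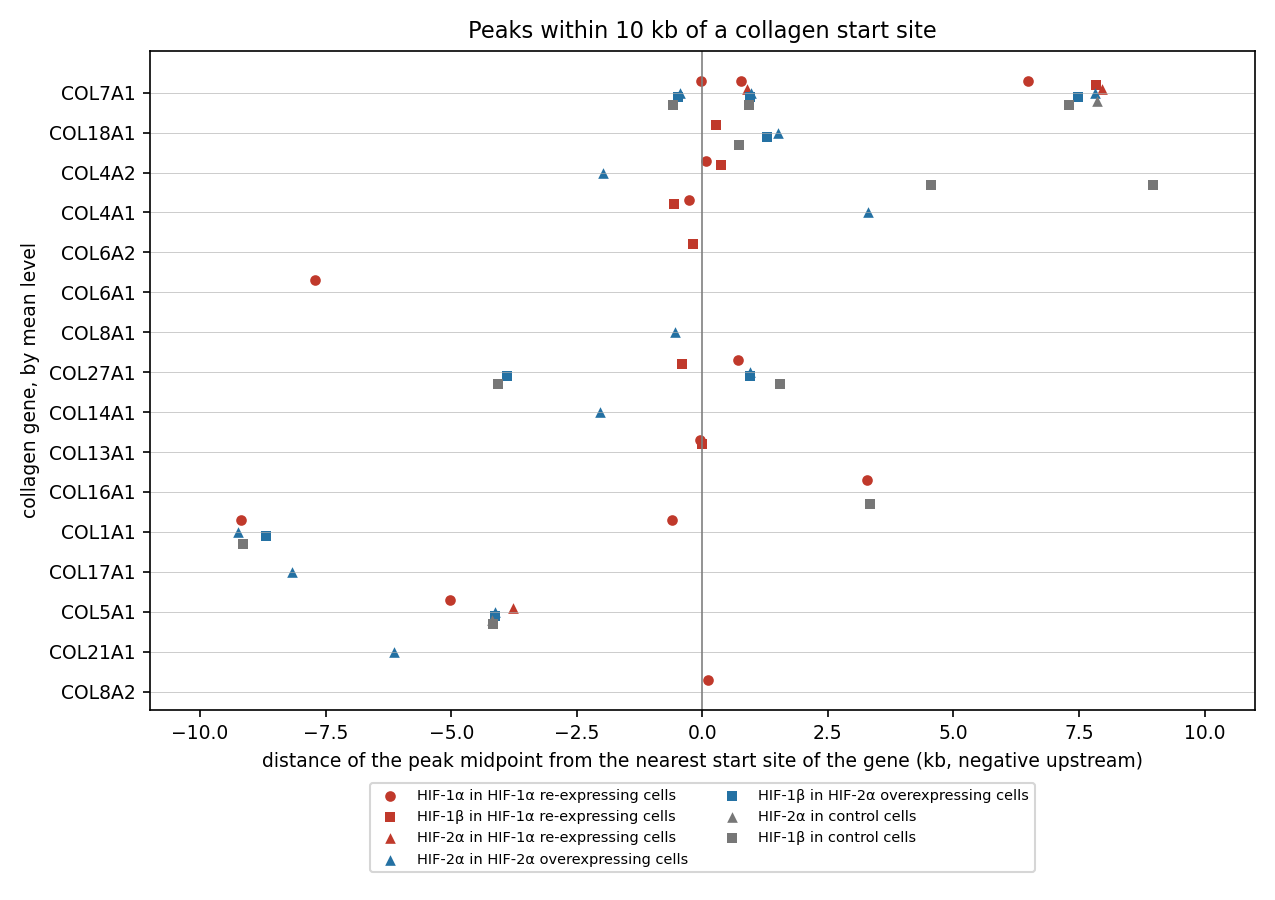
Distance in kb from the nearest start site of each collagen gene to the midpoints of all peaks within 10 kb, 1 point per peak, coloured by cells and shaped by antiserum (circle HIF-1α, square HIF-1β, triangle HIF-2α). COL7A1 has peaks of all 7 lists and COL5A1 of 6, whereas COL6A1, COL6A2 and COL8A1 have 1 each.

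Of the 8 genes that rose with HIF-1α, COL5A1, COL6A1, COL7A1 and COL27A1 had a HIF-1α peak within 10 kb. Such a peak lay at 10 of the 22 tested collagen genes and at 34.6% of all tested genes. COL6A2 had a single peak, of HIF-1β in these cells, at -0.187 kb from a start site, where negative distances lie upstream. For COL6A3, COL9A2 and COL12A1 the nearest HIF-1α midpoints were 128, 46.5 and 1435 kb away. HIF-1α peaks also lay at genes that did not pass the test. These were COL13A1 (-0.04 kb), COL8A2 (0.12 kb from an internal start site), COL1A1 (-0.598 kb from an internal start site), COL16A1 (3.28 kb) and the COL4A1 and COL4A2 pair. With overexpressed HIF-2α the peaks included COL8A1 (-0.539 kb), COL14A1 (-2.03 kb from an internal start site, 284 kb inside the gene from its 5′ end), COL17A1 (-8.18 kb) and COL21A1 (-6.14 kb). Of the 2 genes that fell with HIF-2α, COL14A1 had this HIF-2α peak, and the nearest HIF-2α midpoint of the same cells to COL6A1 was 50.8 kb away. For COL5A2, highest with HIF-2α, it lay at -168 kb. Most COL7A1 peaks lay near a start site annotated at its 3′ end. Their midpoints were 31.1 to 38.3 kb from the 5′ end of the gene and were nearer to the starts of UCN2 or PFKFB4, the latter a known hypoxia target. At the 5′ end itself COL7A1 had HIF-1α at -0.026 kb, HIF-2α of the overexpressing cells at -0.435 kb, and HIF-1β at -0.488 and -0.586 kb in HIF-2α overexpressing and control cells.

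The bases at the centres of 5 peaks are printed from GRCh37 because they lie at genes that rose with HIF-1α or at the starts of the paired type IV genes. Each print holds 300 bases around the midpoint in the direction of the gene. Capitals mark ACGTG or GCGTG on either strand, the core of the hypoxia response element to which HIF dimers bind, or TGACTCA on either strand (its complement is TGAGTCA), the AP-1 site. A core and an AP-1 site can share letters at their ends. Among all HIF-1α peaks, 65.4% of windows of this length held a core and 7.7% the AP-1 site. Among HIF-1β peaks of the same cells these shares were 68.2% and 5.0%, and among HIF-2α peaks of control cells 59.7% and 27.5%. The first is the COL6A1 upstream peak of HIF-1α (chr21:47393815-47394114, at -7.72 kb), which held 1 core. The second is the COL6A2 promoter peak of HIF-1β in the HIF-1α re-expressing cells (chr21:47518375-47518674), with 1 core on the other strand and 81.3% G and C. The third is the COL7A1 promoter peak of HIF-1α (chr3:48632639-48632938, printed on the minus strand), with none. The fourth is the COL5A1 upstream peak of HIF-2α in control cells (chr9:137529309-137529608, at -4.19 kb). Its window held an AP-1 site, starting at base 20 of the 300, and no core. Within 10 kb of the COL5A1 start 6 of the 7 lists had a peak, but this window is centred on the control HIF-2α peak alone. The HIF-1α midpoint, at -5.02 kb, lay outside the window, and the bases around it are not printed. The last is the HIF-1α peak at the starts of COL4A1 and COL4A2 (chr13:110959628-110959927, plus strand), with none. Its midpoint lay 0.073 kb inside COL4A2 from the nearest start site of that gene and 0.273 kb upstream of COL4A1. The COL27A1 peak of HIF-1α, 0.716 kb inside the gene, also held none in this window.
COL6A1: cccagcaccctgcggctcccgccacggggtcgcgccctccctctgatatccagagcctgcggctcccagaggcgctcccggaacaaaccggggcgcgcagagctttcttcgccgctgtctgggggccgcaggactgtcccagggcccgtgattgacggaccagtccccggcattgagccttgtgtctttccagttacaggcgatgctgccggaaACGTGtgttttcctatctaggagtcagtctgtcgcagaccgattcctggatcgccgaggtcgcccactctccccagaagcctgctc
COL6A2: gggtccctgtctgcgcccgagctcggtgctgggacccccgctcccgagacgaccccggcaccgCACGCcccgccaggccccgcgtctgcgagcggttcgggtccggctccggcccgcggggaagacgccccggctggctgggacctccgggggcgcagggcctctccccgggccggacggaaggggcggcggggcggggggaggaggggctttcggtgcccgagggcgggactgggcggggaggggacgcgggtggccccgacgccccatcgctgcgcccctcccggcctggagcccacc
COL7A1: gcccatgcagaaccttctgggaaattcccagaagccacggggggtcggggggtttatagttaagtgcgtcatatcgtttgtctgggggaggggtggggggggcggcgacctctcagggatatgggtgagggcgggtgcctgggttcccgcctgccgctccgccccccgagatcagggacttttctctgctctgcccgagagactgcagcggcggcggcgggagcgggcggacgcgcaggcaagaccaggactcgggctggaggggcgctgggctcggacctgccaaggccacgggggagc
COL5A1: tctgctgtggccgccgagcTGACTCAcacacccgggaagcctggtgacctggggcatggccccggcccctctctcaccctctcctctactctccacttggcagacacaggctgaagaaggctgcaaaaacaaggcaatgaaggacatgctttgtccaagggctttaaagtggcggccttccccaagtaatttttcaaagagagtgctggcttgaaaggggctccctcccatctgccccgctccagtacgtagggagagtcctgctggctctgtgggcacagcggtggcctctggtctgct
COL4A2: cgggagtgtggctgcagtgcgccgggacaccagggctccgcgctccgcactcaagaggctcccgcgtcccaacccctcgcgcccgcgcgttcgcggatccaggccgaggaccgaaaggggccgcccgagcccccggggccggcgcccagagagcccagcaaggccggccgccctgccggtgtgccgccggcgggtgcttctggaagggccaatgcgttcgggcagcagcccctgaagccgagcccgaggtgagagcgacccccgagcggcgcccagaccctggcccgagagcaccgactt
A match of letters is a description of the window and not a site, and the letters outside these 300 bases were not searched.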

How the data were processed

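For the 9 RNA-seq libraries of polyA+ RNA, the authors deposited counts of reads for each gene symbol with no normalization. Per their methods and the submitters' processing notes, reads were aligned to GRCh37 with TopHat2 2.0.8b and Bowtie 1.0.0. Fragments that did not map uniquely were excluded with SAMtools 0.1.19, which lowers counts of genes with near-identical copies. UCSC genes were counted with HTSeq 0.5.4p3, only where a read lay wholly within exons. The strand setting is not given in the sources used here. For ChIP-seq the authors deposited peak positions without other values, as windows of 2500 bp found by both of a pair of peak callers and filtered on read count.

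Counts were tested with edgeR 4.0.16 in R 4.3.3 (TMM scaling, filterByExpr, quasi-likelihood test, Benjamini-Hochberg adjustment over 14225 genes, threshold 0.05) with all 9 libraries in 1 fit. After group means were subtracted, the 9 pairs of same-numbered libraries correlated across genes at 0.348 to 0.652 and the 18 other pairs at -0.478 to 0.0281. The numbers in the labels were therefore taken to pair the libraries, although no source says what a number marks, and a fit with the number as a block stands beside the fit without it. Scripts were tested on simulated counts. Alternatives were DESeq2 1.42.0, its size factors, no filter on low counts, the 6 libraries compared alone, each library left out, and other peak distances. Leaving libraries out of the paired fit and canonical transcript lengths were chosen after seeing the data.

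CPM per kb used the union of exons in the GENCODE annotation on GRCh37, which placed 22042 of 23441 symbols. A peak was near a gene when its midpoint lay within 10 kb of an annotated start site. Symbols that only begin like a collagen (COL4A3BP, COL6A4P1, COL6A4P2) were left out. Genes were named when called in either fit, among the 10 highest collagens, or tested with a near peak, and in other lists when called, up to 3 per direction. The members and lists were chosen with earlier results of these data known.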

Additional observations from a re-analysis of the deposited data

Results flagged for a closer look

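For 8 collagen genes the effects of HIF-1α and HIF-2α differed in the direct test between the isoforms (edgeR with the replicate block, adjusted p under 0.05). The log2 difference, HIF-1α over HIF-2α, was 4.25 for COL9A2, 3.86 for COL5A1, 2.63 for COL14A1, 2.12 for COL6A1, 1.86 for COL11A2, 1.78 for COL6A2, 1.20 for COL7A1 and -1.87 for COL5A2. For 6 of the 8, all but COL5A1 and COL7A1, each replicate number moved one way with HIF-1α and the other way with HIF-2α against the same control libraries. The 8 genes were picked by their isoform difference in these same libraries, which favours opposite moves, and the share among all tested genes is not given. COL5A1 passed the filter on low counts only through the HIF-1α libraries, where it was high. Small moves count too, as for COL14A1 with HIF-1α at 1.03, 1.20 and 1.89 times control. None of the 8 passed in the fit without the block, where their adjusted p-values ran from 0.0541 to 0.136.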

How the results depend on the processing

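In the paired fit (replicate block) edgeR called 1132 genes for HIF-1α against control, 38 for HIF-2α against control and 843 between the isoforms, where the fit without the block called 0, 0 and 7. Collagen genes called with the block were 8, 2 and 8. Genes of collagen folding and processing were 3 for HIF-1α against control and 2 between the isoforms, receptors 2 and 2, and partners 3 and 4. DESeq2 without the block called 751, 65 and 650 genes, of them 5, 1 and 9 collagens. It called 3 folding genes for HIF-1α against control and 2 between the isoforms, 1 receptor for HIF-1α against control, and 3 partners in each of these comparisons. DESeq2 with the block called 3025, 487 and 1798 genes and 11, 5 and 10 collagens, with 7, 3 and 5 folding genes, 3, 2 and 3 partners, and 5 receptors for HIF-1α against control and 2 between the isoforms. Without a filter on low counts edgeR called 1 gene for HIF-2α against control and 82 between the isoforms, of them 2 collagens and 2 partners. With only the 6 libraries compared, these counts of genes were 2 and 0. With the size factors of DESeq2 in edgeR, the 7 genes called between the isoforms were the same 7, and no gene was called in the comparisons with control.

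Without the block, leaving out 1 library gave 0 to 29 genes and 0 to 1 collagen between the isoforms, and 0 to 2 genes for HIF-2α against control. The collagen median log2 fold change then ran from 0.54 to 1.13 for HIF-1α, 0.13 to 0.52 for HIF-2α and 0.84 to 1.38 between the isoforms. With the block, leaving out 1 library gave 0 to 2408, 2 to 94 and 167 to 890 genes and 0 to 7, 0 to 4 and 5 to 10 collagens. The paired medians ran from 0.68 to 0.93, -0.014 to 0.35 and 0.87 to 1.36, the value of -0.014 for HIF-2α standing without HIF-2α replicate 2. Folding genes then numbered 0 to 6, 0 to 2 and 0 to 2, receptors 0 to 4 for HIF-1α against control, and partners 0 to 4 for HIF-1α against control and 2 to 4 between the isoforms. The direction of single genes was followed for 42 pairs of collagen gene and comparison, and not for the remaining pairs, such as COL17A1 with HIF-1α against control. Among the 42, direction changed for COL18A1 with HIF-2α in the fit without the block, which ran from -0.64 without HIF-2α replicate 3 to 0.14 without HIF-2α replicate 1, 0.14 without HIF-2α replicate 2 and 0.13 without control replicate 3. It also changed for COL4A1 with HIF-1α in the paired fit, which ran from -0.083 without control replicate 3 to 0.61 without control replicate 1. The cause was not tested.

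With peak midpoints within 50 kb, the collagen genes with a peak numbered 16 for HIF-1α, 18, 8 and 16 for HIF-1β in HIF-1α re-expressing, HIF-2α overexpressing and control cells, and 8, 17 and 6 for HIF-2α in the same cells. For HIF-2α in control cells the number was 1 within 5 kb and 1 with a single start site per gene. For HIF-2α in HIF-1α re-expressing cells it was 1 with a single start site and 4 when any base of the window counted.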
